A study of Mus musculus with 6 samples.

Results

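The 36 genes described here serve the endoplasmic reticulum (ER), the compartment in which secreted and membrane proteins are made and folded, and its stress response. They were chosen by symbol, with earlier results of these data known, the level of the gene Nupr1 among them. The set holds 15 chaperones and folding enzymes, 7 translocon subunits and 5 stress sensors and transcription factors. It also holds 4 degradation genes and 5 targets of the transcription factor ATF4. All 36 were found among the 27179 Entrez gene IDs of the deposited table, and all 36 passed the low-count filter that left 12967 genes for testing. Mouse group 2 innate lymphoid cells (ILC2s), lymphocytes that secrete type 2 cytokines, had been sorted into a Chat negative and a Chat positive gate, with 3 samples each. Chat encodes choline acetyltransferase, which makes acetylcholine. The gates differ by no other genotype, treatment or time in the labels, and the sources used here do not give the tissue, the mouse strain and age, or the way Chat was detected. Whether different mice gave the 3 samples of a gate is not stated, so each p-value reflects the spread among these libraries alone, which may be technical. In such pooled cells, fewer cells with an mRNA and less of it per cell cannot be told apart. Where 3 values are given for a gate they are in the order of libraries 1, 2 and 3, and the Chat negative gate always comes first, as it does where a pair of means is given.

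Proteins enter the ER through the SEC61 channel, are folded there by chaperones such as BiP (Hspa5) and by disulfide isomerases, and are sent back to the cytosol for degradation if folding fails. When unfolded protein builds up, the membrane sensors IRE1 (Ern1), PERK (Eif2ak3) and ATF6 start the unfolded protein response: IRE1 splices the Xbp1 mRNA, ATF6 is cut to release a transcription factor, and PERK slows translation while allowing that of ATF4. XBP1 and ATF6 raise chaperone and degradation genes, and ATF4 raises genes of amino acid supply and the stress factor CHOP (Ddit3). Cells that secrete heavily, plasma cells being the textbook case, need the XBP1 branch. Splicing of Xbp1, cutting of ATF6 and translation of ATF4 are not seen in counts per gene.

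Mean levels of the 36 ER genes ran from 5.36 CPM for Sec61g to 2367 CPM for Hspa5. The gene that differed most between the gates was Nupr1, a small stress-induced chromatin protein and ATF4 target, which stood at 38.2 ± 6.02 CPM (counts scaled to library size) in the Chat negative gate and at 63.3 ± 1.93 CPM in the Chat positive one (SD, n = 3 each). By edgeR's quasi-likelihood test with Benjamini-Hochberg adjustment at 5%, 0 of the 36 genes were called, where 0.00771% of all genes tested were, the single call being Chat. Nupr1 had the only unadjusted p under 0.05 among the 36, against 2.43% of all genes tested. Since Nupr1 was listed with its level known, its p-values and calls are not independent evidence of a difference. DESeq2 called 1 of the 36, Nupr1, where it called 0.0308% of all genes tested and 0.0231% as higher, and limma-voom called 0 of the 36. Of the 36 log2 changes, 24 were above 0, against 50.9% over all genes tested. For the other 35 genes the largest log2 change in either direction was 0.29 in size.

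Both branches of the response act through short DNA sites, and the promoters of these genes were searched for the letters of 4 of them. RefSeq promoter windows of GRCm38.p6, from 250 bases before to 50 bases after a transcription start, were found for 31 of the 36 genes. The ER stress element (ERSE), the textbook site of ATF6 and XBP1 with NF-Y, was searched on both strands as CCAAT and CCACG with 9 bases between them. It was present in 8 of 31 windows of the ER genes and in 0.179% of the genes tested that had a window. Its shorter relative ERSE-II, ATTGG and CCACG with 1 base between them, was in 2 of 31 windows and in 0.0794% of those genes. The ATF4 site with C/EBP partners (CARE) was searched as TGATGNAA and was in 5 of 31 windows and in 2.82% of those genes. The XBP1 site TGACGTGG was in none of the 31 windows and in 1.09% of those genes. The shares of genes tested include the ER genes, and 18 genes tested had an ERSE, the 8 ER genes among them. As the set was picked as genes of this response, the shares do not test a link between the motifs and the set.

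Shown first are 250 bases before the start of Nupr1, the gene that differed most, and of Hspa5, the most abundant of the set by CPM, with the CARE and the ERSE in capitals. The Nupr1 stretch is chr7:126625471-126625720, minus strand, and its capitals are the CARE read on the opposite strand. The Hspa5 stretch is chr2:34771840-34772089, plus strand.
Nupr1: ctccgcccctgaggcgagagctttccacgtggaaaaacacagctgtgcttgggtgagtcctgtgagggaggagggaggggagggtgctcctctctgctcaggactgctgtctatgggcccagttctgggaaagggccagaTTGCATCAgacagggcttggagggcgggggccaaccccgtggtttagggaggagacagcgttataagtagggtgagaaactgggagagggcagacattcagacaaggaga
Hspa5: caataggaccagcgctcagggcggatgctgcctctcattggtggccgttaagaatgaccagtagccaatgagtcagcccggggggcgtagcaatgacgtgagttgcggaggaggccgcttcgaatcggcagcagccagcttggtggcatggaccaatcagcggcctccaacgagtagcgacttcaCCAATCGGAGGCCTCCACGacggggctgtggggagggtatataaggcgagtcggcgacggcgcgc
The ERSE of Hspa5 ended 46 bases before the start and the CARE of Nupr1 ended 102 bases before it.

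Shorter stretches show the same 3 motifs in front of other members, each read on the strand of the gene, with the motif and its 15 neighbours on either side where the window held them. Those with an ERSE are Pdia6 (chr12:17266476-17266524, plus strand), Dnajc3 (chr14:118937812-118937860, plus strand), Canx (chr11:50325785-50325833, minus strand) and Calr (chr8:84847060-84847108, minus strand, motif on the opposite strand). Chac1 (chr2:119351034-119351071, plus strand, motif on the opposite strand) and Asns (chr6:7693210-7693247, minus strand) hold a CARE. Herpud1 (chr8:94386302-94386402, plus strand) holds both a CARE, on the opposite strand, and, closer to the start, an ERSE-II.
Pdia6: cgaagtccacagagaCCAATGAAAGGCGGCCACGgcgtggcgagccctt
Dnajc3: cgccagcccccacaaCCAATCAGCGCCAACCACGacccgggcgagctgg
Canx: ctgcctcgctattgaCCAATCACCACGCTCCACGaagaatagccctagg
Calr: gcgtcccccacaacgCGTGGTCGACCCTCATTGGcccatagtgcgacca
Chac1: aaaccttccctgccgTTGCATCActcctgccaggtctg
Asns: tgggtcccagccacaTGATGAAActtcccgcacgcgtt
Herpud1: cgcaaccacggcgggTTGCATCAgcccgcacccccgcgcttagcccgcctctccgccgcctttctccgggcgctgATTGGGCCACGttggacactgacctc
The other ERSE windows were those of Hsp90b1, with 2 copies, Creld2 and Syvn1. Dnajb11 held the other ERSE-II and Trib3 the fifth CARE, both after the start. Of the 5 ATF4 targets in the set, 4 had a CARE in the window and Ddit3 had none. A match to these letters is a description of the sequence, not a measured site. The 8 genes with an ERSE had log2 changes of -0.06 to 0.16 with a median of 0.03, the 5 with a CARE -0.12 to 0.73 with a median of 0.11, and the 17 with none of the motifs -0.29 to 0.28 with a median of 0.13.

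The libraries held 37154269 to 50361306 counts, and Chat checked the labels. Its level was 16.5, 26.5 and 17.5 CPM against 188, 169 and 204 CPM (log2 change 3.21, edgeR adjusted p = 0.0174), without overlap. With the replicate block the log2 change was 3.24 and edgeR's adjusted p 0.0961, so that the call was lost. All 12 ILC2 markers were detected, Id2 at 2437 ± 281 and 2534 ± 381 CPM (SD, n = 3) among them. Of markers of other cells, Ms4a1, Tnfrsf17, Cpa3, Ms4a2, Lyz2, C1qa, Cd8a, Ncr1 and Klrb1c had at most 5 counts in any library. The plasma cell gene Mzb1 had at most 11 and Jchain 23 to 338. Some listed markers were present, such as Cd79b at 70.6 ± 4.07 and 79.7 ± 9.75 CPM, Irf4 at 49.9 ± 25.3 and 52.1 ± 22.5, Kit at 189.6 ± 50.1 and 209 ± 61.1, Epcam at 68.1 ± 28.8 and 46.5 ± 13.03, and Cd3g at 28.7 ± 10.4 and 28.8 ± 12.7. The cytokine Il5 stood at 7010.4 ± 1379 and 11183 ± 3207 CPM. Of the other abundant markers, the basophil gene Mcpt8 stood at 122.5 ± 86.6 and 98.7 ± 64.96 CPM, the NK cell genes Nkg7 and Klrk1 at 17.4 ± 5.30 and 12.4 ± 4.24 and at 3.16 ± 1.05 and 1.55 ± 0.670, and Cd28 at 11.8 ± 9.37 and 15.4 ± 11.8. The macrophage genes Cd68 and Adgre1 stood at 15.8 ± 7.601 and 15.7 ± 7.75 CPM and at 2.34 ± 1.49 and 1.43 ± 0.585, and the keratin Krt18 at 1.4998 ± 0.639 and 1.82 ± 0.705. Il5 overlapped between the gates and was called with the replicate block (edgeR adjusted p = 0.0472), as 2 of the 12 ILC2 markers were, both as higher. That fit called 0.339% of all genes tested, 0.216% as higher and 0.123% as lower. The 2 ILC2 markers without overlap, named after their values were seen, were Il13 at 266, 317 and 310.4 CPM against 464, 377 and 427 CPM and Areg at 221, 271 and 238 CPM against 371, 309 and 326 CPM. Both were higher, where 4.53% of all genes tested were higher without overlap and 3.61% lower. The 12 ILC2 markers had 6 log2 changes above 0 and 6 below, with a median of 0.01. For all 3 numbers, 5 were higher and 4 lower. Gata3 was among those below 0, at 2467, 1829 and 2544 CPM against 2425, 1603 and 2355 CPM. For each of the 7 marker lists the summed CPM overlapped between the gates. The 2 libraries numbered 2 stood apart from the others of their gate, with a chi-square per degree of freedom of 132 to 187 against 31.5 and 32.2 between numbers 1 and 3.

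**Figure D1:**
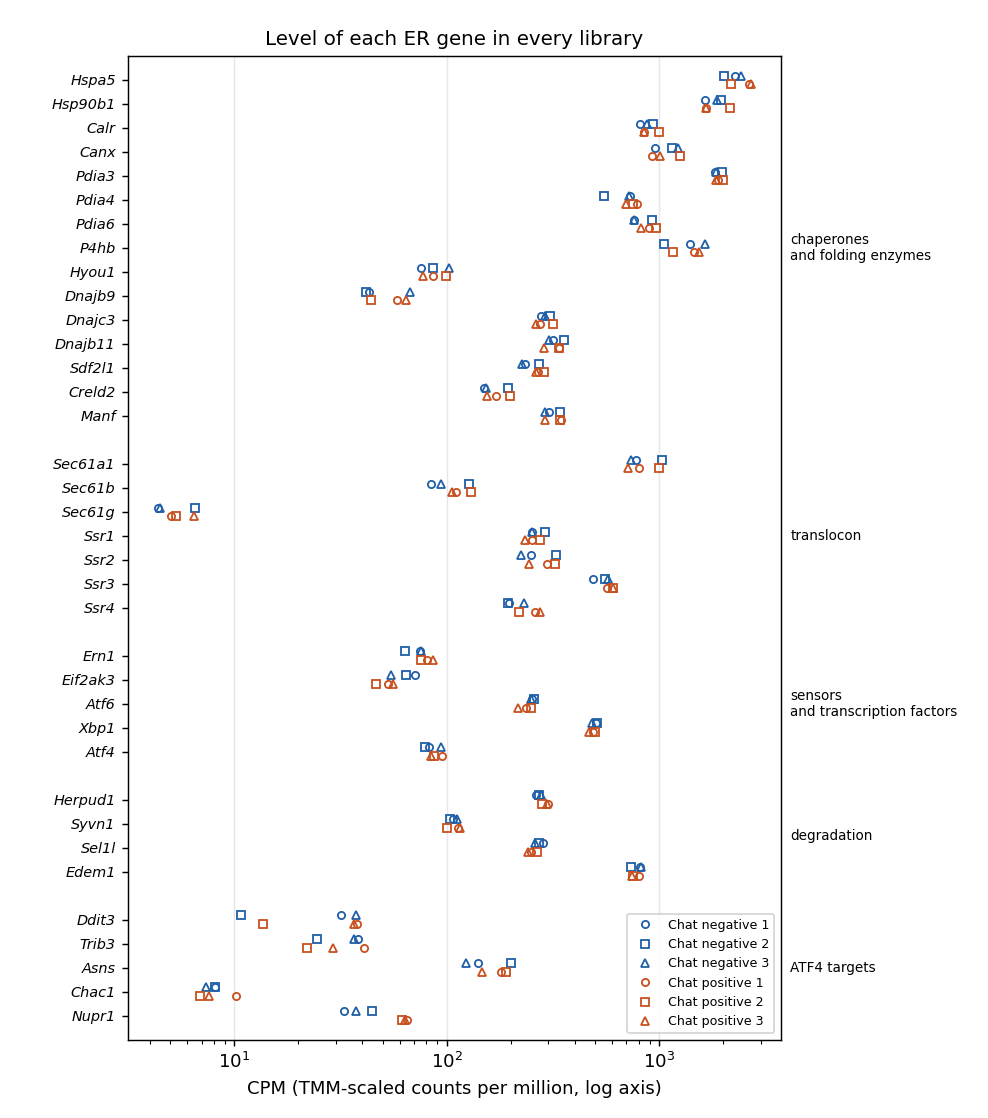
CPM of the 36 ER genes (rows, by role) in each of the 6 libraries on a log axis, blue for Chat negative and orange for Chat positive, with a circle, square or triangle for replicate number 1, 2 or 3. Points of both colours overlap for most genes, and Nupr1, Ern1 and Herpud1 stand higher and Atf6 lower in Chat positive cells without overlap.

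Levels between genes were compared as CPM per kilobase of the longest coding transcript. The highest were the isomerase Pdia3 at 680.5 ± 26.5 and 689.7 ± 24.8, Hspa5 at 609 ± 57.6 and 680.1 ± 78.6 and the ER HSP90 protein Hsp90b1 at 643 ± 57.1 and 645 ± 97.7 (SD, n = 3). The mean ± SD ranges of these genes overlapped within each gate, and their order was not tested. P4hb, Calr, Pdia6 and Pdia4 followed, at means over all 6 libraries of 479.5, 405, 393 and 294. Xbp1, at 233 ± 6.52 and 228 ± 7.88, stood far above the sensor mRNAs on this scale, with Atf6 at 34.9 ± 0.427 and 32.2 ± 2.11, Eif2ak3 at 14.0 ± 1.87 and 11.5 ± 1.04 and Ern1 at 10.3 ± 0.927 and 11.7 ± 0.776. The lowest were Chac1, a glutathione-degrading enzyme, and the channel subunit Sec61g, at 4.79 ± 0.264 and 2.75 ± 0.653 in Chat negative cells. Together the 36 genes took 1.65%, 1.74% and 1.72% of a library's counts against 1.76%, 1.86% and 1.73%, or 1.70% ± 0.0509 and 1.78% ± 0.0711 on average (SD, n = 3). Chat positive 3 lay within the Chat negative range.

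Chaperones and folding enzymes had 11 of 15 log2 changes above 0 and 0 past the threshold, with a median of 0.04 beside 0.00 over all genes tested. Hspa5, the HSP70 chaperone BiP, stood at 2275, 2008 and 2426 CPM against 2631, 2166 and 2695 CPM. Number 2 was the lowest library of each gate, and Chat positive 2 lay within the Chat negative range. The log2 change was 0.16 (SE 0.13, 95% interval -0.15 to 0.47). Sdf2l1, a BiP partner, stood at 232, 270.2 and 227 CPM against 269, 287 and 263 CPM. Only Chat negative 2 reached into the Chat positive range, and the log2 change was 0.17 (SE 0.11, 95% interval -0.08 to 0.42).

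Pdia4, a disulfide isomerase, stood at 729.8, 551 and 719 CPM against 784, 748 and 699.7 CPM, so that the gates overlapped and Chat negative 2 was low. Among the other isomerases, Pdia3 stood at 1885 ± 73.4 and 1910.4 ± 68.7 CPM, Pdia6 at 815 ± 96.6 and 894 ± 72.0 and P4hb at 1362 ± 294 and 1382 ± 197 (SD, n = 3). Calreticulin (Calr) and calnexin (Canx), which hold sugar-bearing proteins during folding, stood at 872 ± 61.8 and 896 ± 85.4 CPM and at 1108 ± 140.2 and 1061 ± 171. Hsp90b1 stood at 1816 ± 161 and 1822 ± 276 CPM. The BiP co-chaperones Dnajb11, Dnajc3 and Dnajb9 stood at 324 ± 27.1 and 319.9 ± 28.5, 290.4 ± 14.7 and 284 ± 28.0, and 50.5 ± 14.1 and 55.4 ± 10.2 CPM. Hyou1, a large HSP70 relative, stood at 88.0 ± 13.5 and 87.6 ± 10.9 CPM. The stress-induced ER proteins Creld2 and Manf stood at 165 ± 24.4 and 174 ± 21.8 and at 309.9 ± 25.8 and 325 ± 31.2 CPM. All of these ranges overlapped between the gates. Reads of Hsp90b1 and Manf cannot be fully told apart from those of other genes, since 13.8% and 5.32% of their transcripts' 50-base words also occur in genes annotated on the opposite strand or, for Hsp90b1, on either strand. The same holds for Dnajb9, of whose words 5.8% also occur in another gene.

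**Figure D2:**
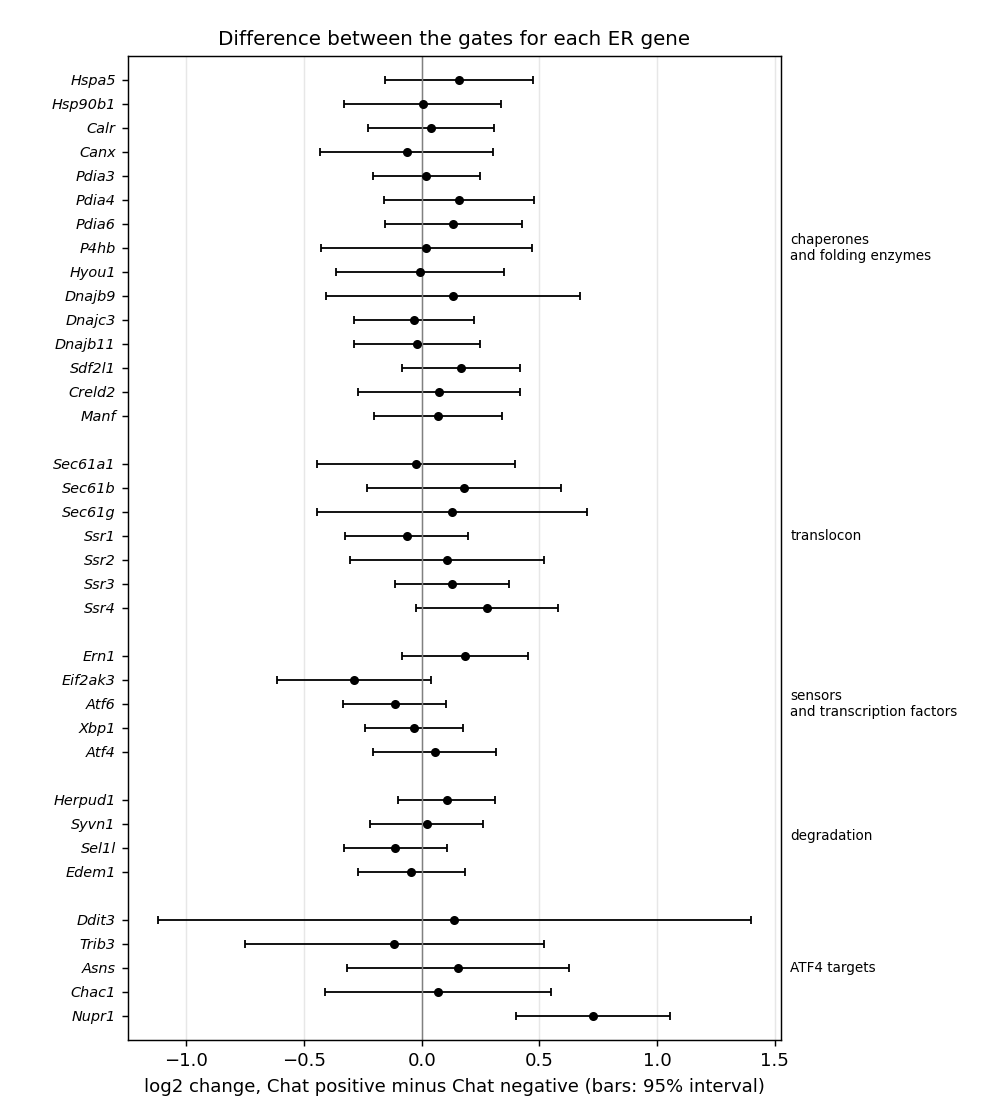
Log2 change of each ER gene (rows, by role), Chat positive minus Chat negative, with its 95% interval from edgeR's quasi-likelihood fit of 3 against 3 libraries. Every interval but that of Nupr1 (0.40 to 1.05) includes 0, and Ddit3 has the widest, -1.12 to 1.399.

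Translocon genes had 5 of 7 log2 changes above 0, a median of 0.13 and 0 past the threshold. Ssr4, a subunit of the translocon-associated complex beside SEC61, stood at 196, 193 and 231 CPM against 261, 218 and 273 CPM. The Chat positive library was the higher one for 3 of 3 numbers, and Chat positive 2 lay within the Chat negative range. Its log2 change was 0.28 (SE 0.13, 95% interval -0.02 to 0.58). Ssr3, of the same complex, stood at 489, 555 and 576 CPM against 564, 604 and 604 CPM, also with an overlap.

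The small channel subunit Sec61b stood at 84.2, 127 and 93.7 CPM against 111, 129 and 106 CPM, with number 2 the highest of each gate. The pore subunit Sec61a1 stood at 779, 1027 and 737 CPM against 802, 992 and 709.5 CPM, again with number 2 highest, and 14.6% of its transcript's 50-base words lie in a gene annotated on the opposite strand. Ssr1 stood at 264 ± 22.6 and 253 ± 21.2 CPM and Ssr2 at 266 ± 54.2 and 287 ± 40.0. Sec61g stood at 5.12 ± 1.22 and 5.603 ± 0.773 CPM, from 185 to 283 counts a library, although its protein is part of the same channel. In GENCODE vM21, 20.5% of the 50-base words of its longest coding transcript also occur in 5 other genes, and 41.0% of those of Sec61b in 3 others, so the counts of both are uncertain, and the part of this in their levels was not tested.

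Sensors and transcription factors had 2 of 5 log2 changes above 0 and a median of -0.03. Eif2ak3 (PERK) stood at 71.1, 64.0 and 54.3 CPM against 53.0, 46.5 and 55.7 CPM. It was lower in Chat positive cells for numbers 1 and 2, and slightly higher for number 3. Its log2 change was -0.29 (SE 0.14, 95% interval -0.61 to 0.04). Of its transcript's 50-base words, 7.64% lie in a gene annotated on the opposite strand.

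Ern1 (IRE1) stood at 74.4, 63.8 and 75.5 CPM against 80.8, 75.7 and 86.4 CPM, without overlap, at a log2 change of 0.18 (SE 0.11). Atf6 stood at 252, 256 and 249.7 CPM against 235, 247 and 217 CPM, also without overlap but lower, at -0.11 (SE 0.09). Neither passed the test, and the 95% intervals ran from -0.08 to 0.45 and from -0.33 to 0.10. The log2 changes of the 3 sensor mRNAs were thus not all of one sign, but each 95% interval included 0, so no difference in direction is shown. Xbp1 stood at 501, 507 and 480.2 CPM against 489, 499 and 466 CPM, with an overlap and a 95% interval of -0.24 to 0.17. Atf4 stood at 85.2 ± 7.75 and 88.5 ± 5.496 CPM.

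Degradation genes had 2 of 4 log2 changes above 0 and a median of -0.01. Herpud1, a membrane protein of the degradation complex, stood at 262, 272 and 276 CPM against 299, 279 and 295 CPM. These did not overlap, at a log2 change of 0.11 (SE 0.09). The ubiquitin ligase Syvn1 stood at 107 ± 4.31 and 109 ± 8.19 CPM. Its partner Sel1l stood at 284, 272 and 260.3 CPM against 248, 266 and 240.1 CPM, with an overlap. Edem1, which trims sugars on misfolded proteins, stood at 810.4, 739 and 818 CPM against 804, 751 and 739.6 CPM.

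In all, 3 of the 36 ER genes (Nupr1, Ern1 and Herpud1) were higher in Chat positive cells without overlap and 1 (Atf6) lower, where 4.53% and 3.61% of all genes tested were, or 8.14% together. The 95% interval lay inside a 1.5-fold difference either way for 28 of the 36, against 43.7% of all genes tested. These shares were not matched for level. All 36 had a mean of at least 5 CPM, while 12967 genes were tested and 9505 passed a filter of 5 CPM in 3 libraries. The intervals of Nupr1, Ddit3, Trib3, Asns, Eif2ak3, Dnajb9, Sec61b and Sec61g reached outside 1.5-fold.

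ATF4 targets held the gene that differed most and those that varied most between libraries. Nupr1 (chromosome 7, 126623246 to 126625470, GRCm38.p6) stood at 32.6, 44.6 and 37.4 CPM against 65.2, 61.3 and 63.3 CPM. The lowest Chat positive library was above the highest Chat negative one, and the Chat positive libraries were close to each other. The log2 change was 0.73 (SE 0.14, 95% interval 0.40 to 1.05), with an unadjusted p of 0.00116, and edgeR's adjusted p was 1.00. DESeq2 gave a log2 change of 0.72 and an adjusted p of 0.0221. Blocking on the replicate number, edgeR called Nupr1 alone among the 36 (log2 change 0.74, adjusted p = 0.0420), where it called 0.339% of all genes tested, 0.216% as higher and 0.123% as lower. The block in limma-voom called Nupr1 too (0.72, adjusted p = 0.0298), with 0.494% of all genes called, 0.216% as lower. The blocked edgeR call was lost without number 1 (0.60, adjusted p = 0.484), without number 2 (0.87, 0.0985), without robust dispersions (0.74, 0.104) and when length and GC content were corrected for (0.65, 0.108), a fit that called 0.0308% of all genes, 0.0231% as lower. Without the libraries of number 2 and with no block, edgeR gave 0.87 and an adjusted p of 0.323. Over all alternatives the adjusted p ran from 1.68e-08 to 1.00 and the log2 change from 0.60 to 0.87. As Nupr1 was listed with its level known, none of these p-values is independent of that choice.

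**Figure D3:**
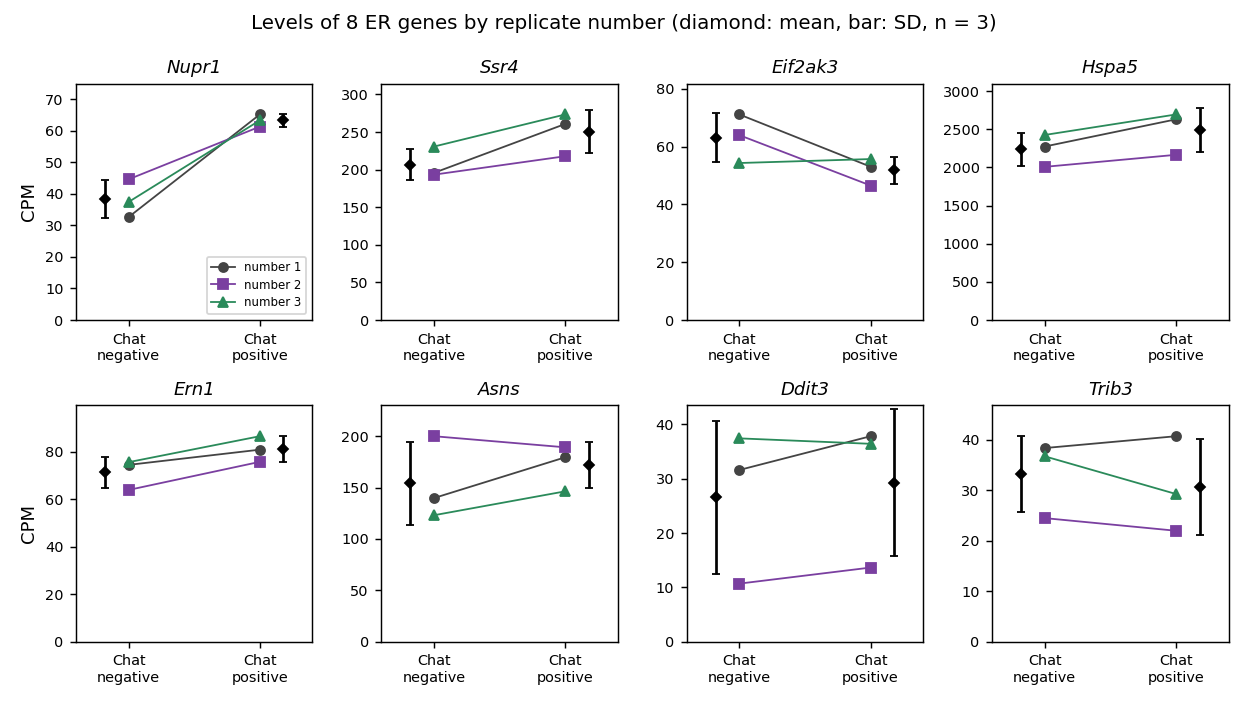
CPM of 8 ER genes in each gate, with lines joining libraries of the same replicate number, and the mean and SD of 3 libraries as a diamond with a bar. Nupr1 rises along all 3 lines, Eif2ak3 is lower in Chat positive cells for numbers 1 and 2 only, and number 2 is the lowest library of both gates for Ddit3 and Trib3.

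The intervals of the other 4 ATF4 targets included 0, and none of them was tested against Nupr1. Asns, which makes asparagine, stood at 139.8, 199.9 and 123.1 CPM against 179, 189 and 146 CPM, at a log2 change of 0.15 (SE 0.20). Trib3, a pseudokinase, stood at 38.4, 24.5 and 36.7 CPM against 40.7, 22.0 and 29.3 CPM, at a log2 change of -0.12 (SE 0.27). Both overlapped between the gates. Chac1 stood at 7.84 ± 0.432 and 8.22 ± 1.69 CPM.

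Ddit3 (CHOP), a transcription factor linked to cell death under ER stress, was chosen after its values were seen. Its levels were 31.6, 10.7 and 37.4 CPM against 37.8, 13.7 and 36.4 CPM. In number 2 it was at 0.311 times the geometric mean of numbers 1 and 3 in one gate and at 0.368 times in the other, a wider gap than any between the gates among these genes. Trib3 was at 0.652 and 0.637 times. Asns lay the other way, at 1.52 and 1.17 times.

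Number 2 was the highest library of both gates for 14 of the 36 ER genes and the lowest of both for 8, where 31.2% and 29.6% of all genes tested were. The highest included 7 of 15 chaperones and folding enzymes and 4 of 7 translocon genes (Sec61a1, Sec61b, Ssr1 and Ssr2), as well as Atf6, Xbp1 and Asns. The lowest were Hspa5, P4hb, Dnajb9, Ssr4, Ern1, Syvn1, Ddit3 and Trib3. In the same libraries 8 of 12 ILC2 markers were the lowest of both gates, and the mast cell and basophil gene Mcpt8 had 1337 and 1282 counts against 4585 to 8760 in the others. The part of these marker levels in the differences by number was not tested.

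**Figure D4:**
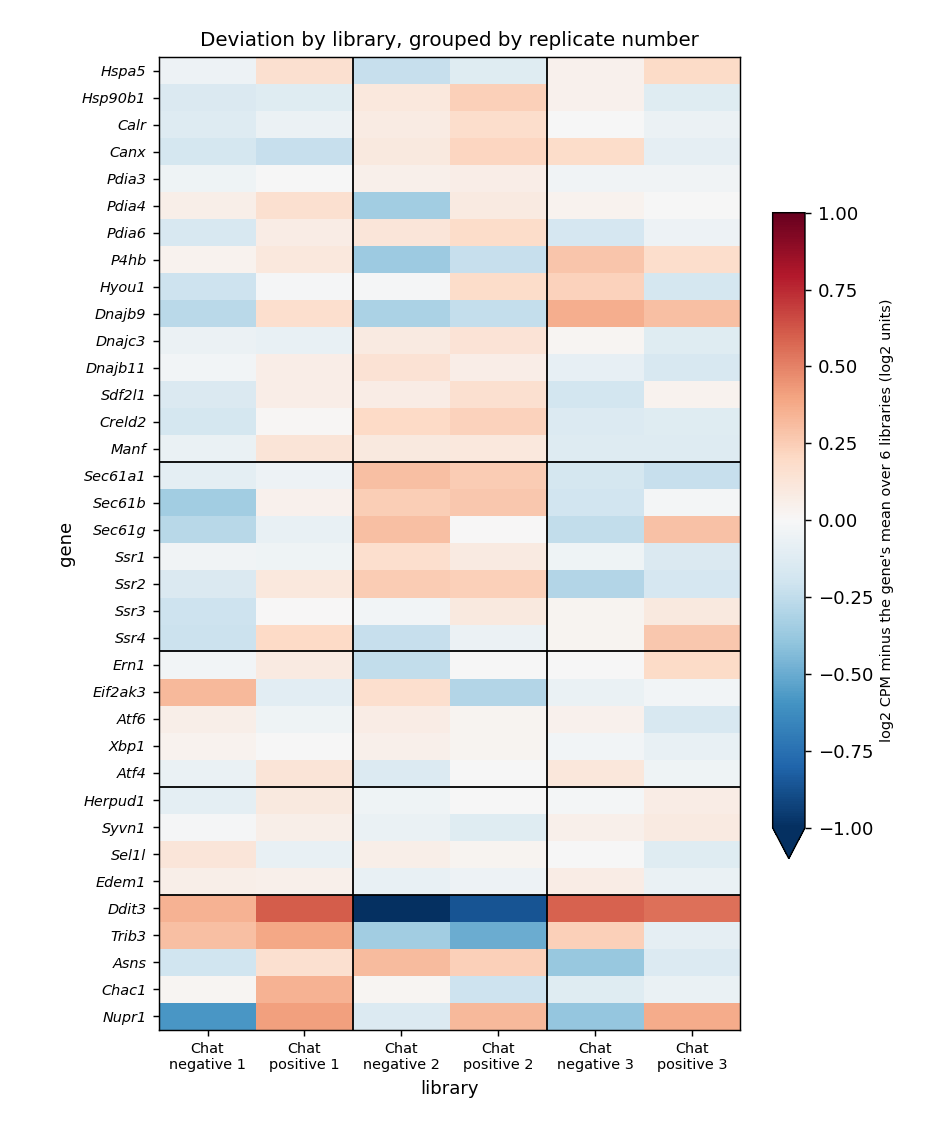
Log2 CPM of each ER gene (rows) minus its mean over 6 libraries, in columns ordered by replicate number, with horizontal lines between roles. Both columns of number 2 are low for Ddit3, Trib3, P4hb and Dnajb9, among others, and high for Sec61a1, Sec61b and Ssr2, among others, while Nupr1 is low in every Chat negative and high in every Chat positive column.

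The 3 differences by number had one sign for 15 of the 36 genes, against 39.6% of all genes tested. They were higher in Chat positive cells for 11, where 22.3% of all genes tested were, and lower for 4, where 17.3% were. The 11 were Hspa5, Pdia3, Pdia6, Sdf2l1, Creld2, Sec61b, Ssr3, Ssr4, Ern1, Herpud1 and Nupr1, and the 4 were Ssr1, Atf6, Xbp1 and Sel1l. With the block, 9 of the 36 had an unadjusted p under 0.05, against 16.5% of all genes tested. DESeq2 with the block called Ssr4 as well (log2 change 0.27, adjusted p = 0.0114) and 3.67% of all genes, 2.2% as lower. The blocked edgeR fit without number 3 called Nupr1, Ssr4 (0.29, adjusted p = 0.0243), Pdia4 (0.27, 0.0221) and Eif2ak3 (-0.44, 0.00178), with 5.43% of all genes called, 1.32% as higher and 4.11% as lower. The last 3 were called by no other edgeR fit.

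Of 159 further genes of the secretory pathway in 7 lists, 154 were tested and 0 passed in edgeR in either direction, with 4 at an unadjusted p under 0.05 (0 called by DESeq2 and by limma-voom). Their median log2 change was 0.03. Of the 154, 13 were higher and 2 lower without overlap, where 4.53% and 3.61% of all genes tested were. The abundant oxidase Ero1a, which feeds oxidising power to the isomerases, exceeded every ER gene above, at 1823 ± 498 and 1778 ± 486 CPM per kilobase (SD, n = 3). It was lowest in number 2, at 5683 and 5616 CPM against 8048 to 10024 CPM in the other libraries. Among other folding enzymes, Fkbp11 stood at 15.5 ± 4.60 and 20.9 ± 1.83 CPM, Erp29 at 81.3 ± 4.63 and 91.9 ± 3.63 and Ppib, a proline isomerase, at 150.2 ± 6.86 and 165 ± 10.99. Erp29 and Ppib did not overlap between the gates. Of the targeting and translocation genes, 16 of 19 log2 changes were above 0, with a median of 0.11. The signal peptidase subunits Spcs1 and Spcs3 stood at 133 ± 11.6 and 157 ± 1.97 CPM and at 1752 ± 73.2 and 1901 ± 57.4, both without overlap. Srp19, of the signal recognition particle, stood at 148 ± 13.7 and 174 ± 17.7 CPM and Hspa13 at 260.3 ± 28.2 and 307 ± 35.0.

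Transport from the ER to the Golgi had 12 of 25 log2 changes above 0. Bet1, a membrane fusion protein, stood at 52.5 ± 3.06 and 64.96 ± 1.96 CPM, and the coat subunit Sec13 at 128 ± 10.7 and 159 ± 8.83, while another coat subunit, Sec24b, stood at 73.9 ± 4.90 and 60.1 ± 5.07 (SD, n = 3). Named for the smallest p of their list, these 3 did not overlap between the gates, and the coat genes lay in opposite directions. Of the 25 genes, 4 were higher and 1 lower without overlap, where 4.53% and 3.61% of all genes tested were. The cargo receptor Surf4, the most abundant of the list, stood at 1093 ± 73.8 and 1083 ± 60.3 CPM. Among N-glycosylation genes, Ostc stood at 228 ± 11.8 and 255 ± 8.605 CPM, Tusc3 at 49.1 ± 9.48 and 57.1 ± 4.72, Mogs at 159 ± 37.5 and 109 ± 36.9 and Stt3b, a catalytic subunit, at 841 ± 152 and 759 ± 219. Of these, only Ostc did not overlap between the gates. Among degradation genes, Selenok stood at 139 ± 13.1 and 168 ± 26.7 CPM, Edem3 at 47.4 ± 2.18 and 40.6 ± 5.63 and the lectin Os9 at 501 ± 60.4 and 481 ± 67.8.

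The 29 tested further ATF4 targets had 16 log2 changes above 0 and a median of 0.03. Cth, which makes cysteine, stood at 1.57 ± 0.462 and 2.85 ± 0.345 CPM (SD, n = 3), without overlap, at a log2 change of 0.86 (SE 0.32), which is larger than that of Nupr1, from 47 to 137 counts a library. Atf5 stood at 1.33 ± 0.226 and 1.88 ± 0.378 CPM, Sesn2 at 62.8 ± 2.29 and 54.4 ± 7.05, and the asparaginyl-tRNA synthetase Nars, the most abundant, at 359 ± 71.4 and 384 ± 47.5. Other stress signalling genes had 5 of 16 log2 changes above 0 and a median of -0.09. Among these, the adaptor Traf2 stood at 93.2 ± 8.16 and 109 ± 10.2 CPM, and the eIF2α kinases Eif2ak1 and Eif2ak4, which signal to ATF4 beside PERK, at 119 ± 4.94 and 108 ± 6.44 and at 24.5 ± 2.98 and 21.0 ± 2.19. Eif2ak1 did not overlap between the gates. Tmbim6, an ER membrane protein, stood at 403 ± 25.2 and 386 ± 34.5 CPM.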

How the data were processed

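Per the labels' protocols, libraries of the 6 sorted ILC2 samples were made with a SMARTer kit for very little RNA. CASAVA 1.8.2, the aligner STAR 2.3.0 and mm10 are listed in the submitters' processing notes. How reads were counted, and on which strand, is not given in the sources used here. The deposited values are raw read counts per Entrez gene, which the authors did not normalise, judging from whole numbers with different column sums. Symbols and coordinates came from RefSeq on GRCm38.p6 (25275 IDs matched), and transcript length and GC content from GENCODE vM21.

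All genes kept by filterByExpr were fitted together (R 4.3.3, edgeR 4.0.16, TMM scaling, robust quasi-likelihood F-test, two-sided, Benjamini-Hochberg over all genes, 5%), with the gate as the only term. A log2 change above 0 means higher in Chat positive cells. Its standard error follows from the F statistic, and its 95% interval is not adjusted for the number of genes. CPM are relative to TMM-scaled library sizes. DESeq2 1.42.0, limma-voom (limma 3.58.1), other scalings and filters, left-out libraries and the block were alternatives, and the fit without both libraries of number 2 and without a block was chosen after seeing the data. Deviations from the gate means were correlated between libraries that share a number (r over genes 0.29 for number 1, 0.67 for number 2 and 0.43 for number 3). Chat negative 1 correlated as much with Chat positive 3 (0.30), and Chat negative 3 with Chat positive 1 at 0.20, so number 2 stood out and numbers 1 and 3 were not clearly told apart. Each same-number correlation was above 0.1, but so were these cross-number values, so that cut could not settle how numbers 1 and 3 pair. The block and the differences by number assume that the numbers pair the libraries, which no label states. Differences by number used log2 of CPM plus 0.1. The edgeR fits with and without the block, DESeq2 and limma-voom were also run on simulated counts. These held a gate effect but no effect of the replicate number, whereas number 2 stood apart in the data. They could thus not show how the models behave here, and no outcome of them is used.

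The members and gene lists were chosen with earlier results of these data known, the level of Nupr1 among them. Values are given for every library for the 3 members of each role with the smallest p, the most abundant member of each role, and members called in any fit. From each further list the 3 genes with the smallest p and the most abundant gene are named, and from each marker list the 2 most abundant, except that 1 such gene is not reported here. Markers named for being near 0 were picked after their values were seen.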

Additional observations from a re-analysis of the deposited data

How the results depend on the processing

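All genes tested gave 1 call without the block, and the count changed with DESeq2 (4), the replicate block (44), the block with DESeq2 (476), with limma-voom (64) and with the length and GC correction (4). The block without robust dispersions gave 1 call again. The count ran from 0 to 709 when libraries were left out. It was 0 without Chat negative 1 or 3 or Chat positive 1 or 3, and 709 with the block and without number 3. ER genes called went from 0 to 1 with DESeq2, with the replicate block and with the block in limma-voom, to 2 with the block in DESeq2, and lay between 0 and 4 when libraries were left out. The further pathway genes called went from 0 to 8 with the block in DESeq2 (Srp19, Sec11c, Hspa13, Selenok, Sec13 and Bet1 higher, Stc2 and Sec24b lower), and lay between 0 and 6 when libraries were left out. The cause of these differences was not tested. Over all 6 libraries, the block added Nupr1 in edgeR and limma-voom and Ssr4 in DESeq2, and no other ER gene. The blocked edgeR fits without robust dispersions or with the length and GC correction did not call Nupr1. Without number 3, the blocked edgeR fit also called Ssr4, Pdia4 and Eif2ak3. The median log2 change of the ER genes moved by less than the spread between libraries (SD 0.064) under all 22 alternatives, from 0.0014 without number 1 in the blocked fit to 0.10 without number 3. That SD is of single libraries, and the median in the unblocked edgeR fit, 0.0618, was itself below it. Staying within it therefore does not show that the median held.

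The log2 change kept its sign for 16 of the 36 genes under all 22 alternatives, and the other 20 were at most 0.14 in size in the unblocked edgeR fit and up to 0.2377 where the sign had turned. Hsp90b1 turned to -0.0035 with RLE scaling and with DESeq2, -0.0029 with limma-voom, -0.0017 with the replicate block with or without robust dispersions, -0.01 with the block in DESeq2 and -0.0766 with the length and GC correction. With that correction Edem1 turned to 0.036, Hyou1 to 0.0657, Pdia3 to -0.0185, Sec61a1 to 0.0085 and Ssr1 to 0.0288, and with library-size scaling Hyou1 turned to 0.0123. With 1 library left out the sign turned within these ranges: Hsp90b1 -0.1283 to 0.0653, Calr -0.0442 to 0.0886, Canx -0.1993 to 0.0288, Pdia3 -0.0105 to 0.0526, P4hb -0.1334 to 0.1752, Hyou1 -0.1072 to 0.1121, Dnajc3 -0.1169 to 0.0055, Dnajb11 -0.0673 to 0.0502, Creld2 -0.0274 to 0.2042, Sec61a1 -0.1668 to 0.1389, Sec61g -0.0034 to 0.3423, Ssr1 -0.1305 to 0.0096, Ssr2 -0.0029 to 0.2850, Syvn1 -0.0336 to 0.0809, Ddit3 -0.2377 to 0.4814, Trib3 -0.3745 to 0.0749 and Chac1 -0.1098 to 0.1786. Without both libraries of number 2 and no block, it turned for Hsp90b1 -0.0773, P4hb -0.0242 and Dnajb11 0.0078. With the block and without number 1, it turned for Hsp90b1 -0.0213, Manf -0.0031, Atf4 -0.0176, Syvn1 -0.0143 and Chac1 -0.0932. With the block and without number 2, it turned for Hsp90b1 -0.0748, P4hb -0.0205 and Dnajb11 0.0045. With the block and without number 3, it turned for Canx 0.0358, Hyou1 0.1963, Dnajc3 0.0169, Dnajb11 0.0092, Sec61g -0.0564 and Edem1 0.0064. The member with the fewest counts, Sec61g, had at least 185 in each library.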
